A study of Homo sapiens with 95 samples.

Results

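The response of a control line of human airway cells to benzo[a]pyrene (BaP), a carcinogen of tobacco smoke, was measured by RNA sequencing. The 6 samples described are 3 labelled HcRed and BaP and 3 labelled HcRed and DMSO, out of 95 samples in the series, and the genes described are the 14240 of 27978 listed genes whose mean count over those 6 samples was above 1. All samples came from AALE cells, an immortalised line of human bronchial epithelial cells, and the series assessed a highly multiplexed RNA-seq platform, sparse full length sequencing (SFL), on cells with chemical and genetic changes. The HcRed cells carried an empty vector with the fluorescent reporter HcRed and were the control for lines that overexpressed NRF2, FGFR1, NRG1 or PIK3CA. BaP was given at 173 µM, and DMSO was the vehicle. Used for comparison were HcRed cells given cigarette smoke condensate (CSC) at 24 µg/ml or the nitrosamine NNK at 490 µM, 3 samples each. A further 6 samples, 3 with BaP and 3 with DMSO, came from AALE cells transfected with a Cas9 and EGFP plasmid that carried no guide RNA (GFP cells), the control for knockouts of FAT1 and CDKN2A. By the study's methods, confluent cultures in multiwell plates were the starting point, and the duration of the exposure is not given in the sources used here. The samples represent 1 line and 1 dose. The study calls the replicates biological, and whether they were separate cultures is not given in the sources used here, so the p-values measure the spread between these samples.

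Depth was low in this format. Counted reads per sample ranged from 287446 to 2116383 over the 95 samples. The BaP samples held 1406310, 1494564 and 460538 reads and the DMSO samples 1173281, 694898 and 1032133, so that 3 counts corresponded to between 2.01 and 6.51 counts per 1000000 counted reads (CPM), and genes near that level were measured poorly. BaP replicate 3 was the shallowest of the 6. Pearson correlations of log2 CPM within a group, across genes, lay between 0.955 and 0.978. Airway basal epithelial markers were present, with all 14 listed markers tested and a summed level of 9665 to 10282 CPM in the BaP samples and 10180 to 10822 CPM in the DMSO samples. Markers of other cell types were low. Of 9 ciliated and secretory markers 1 was tested and 4 were at 0 in all 6 samples, with a summed level of 4.27 to 10.9 CPM in the BaP and 2.88 to 6.82 CPM in the DMSO samples. Fibroblast markers summed to 25.4 to 28.4 and 10.7 to 31.7 CPM with 2 of 8 tested and none called, leukocyte markers to 12.8 to 21.4 and 8.63 to 15.3 CPM with 2 of 7 tested and PTPRC among 5 at 0, and endothelial markers to 0 to 2.13 and 0 to 0.969 CPM with none tested. In bulk RNA of this kind fewer cells of a type and less RNA per cell cannot be told apart.

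BaP is a polycyclic aromatic hydrocarbon that binds the aryl hydrocarbon receptor (AhR), a transcription factor held in the cytoplasm by HSP90 and other chaperones. The bound receptor moves to the nucleus, pairs with ARNT and binds DNA at the xenobiotic response element (XRE), whose core is GCGTG. Its best known targets are the oxidases CYP1A1 and CYP1B1, which with the epoxide hydrolase EPHX1 convert BaP to a diol epoxide that forms bulky adducts with DNA, and the feedback repressors AHRR and TIPARP. Quinones made from BaP can also engage NRF2, the regulator of antioxidant genes.

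The promoters of AhR target genes are shown because the receptor acts at DNA near the genes whose values come first. RefSeq windows matched 5 of the 7 AhR target genes that rose, and each window below is the 250 bases before a RefSeq start site, 5′ to 3′ on the gene's strand. Sequences come from the RefSeq table of build GRCh38.p14, and positions are given on GRCh37 (the hg19 build of the counts) from an exact match of the same letters. Capitals mark the XRE core, GCGTG or its reverse complement CACGC.
CYP1A1, chr15:75017870-75018119, minus strand: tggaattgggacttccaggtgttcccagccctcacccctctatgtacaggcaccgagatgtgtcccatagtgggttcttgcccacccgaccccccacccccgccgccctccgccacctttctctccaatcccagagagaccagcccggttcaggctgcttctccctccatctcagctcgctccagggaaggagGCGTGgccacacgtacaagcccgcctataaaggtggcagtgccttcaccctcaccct
AHRR, chr5:321579-321828, plus strand: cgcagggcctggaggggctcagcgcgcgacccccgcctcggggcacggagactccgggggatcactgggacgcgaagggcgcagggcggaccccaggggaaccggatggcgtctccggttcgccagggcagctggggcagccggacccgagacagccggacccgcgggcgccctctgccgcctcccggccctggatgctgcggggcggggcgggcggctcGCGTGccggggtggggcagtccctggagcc
TIPARP, chr3:156392129-156392378, plus strand: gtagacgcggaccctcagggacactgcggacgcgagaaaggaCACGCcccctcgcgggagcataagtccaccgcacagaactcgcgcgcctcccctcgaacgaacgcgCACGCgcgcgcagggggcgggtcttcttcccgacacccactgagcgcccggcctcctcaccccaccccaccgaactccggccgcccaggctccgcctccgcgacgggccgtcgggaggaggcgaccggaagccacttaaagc
SLC7A5, chr16:87903114-87903363, minus strand: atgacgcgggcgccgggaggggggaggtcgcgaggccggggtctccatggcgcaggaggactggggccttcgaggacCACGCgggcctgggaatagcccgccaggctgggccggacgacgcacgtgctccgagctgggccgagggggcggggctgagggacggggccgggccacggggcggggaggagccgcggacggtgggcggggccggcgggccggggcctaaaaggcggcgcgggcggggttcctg
NQO1, chr16:69760464-69760713, minus strand: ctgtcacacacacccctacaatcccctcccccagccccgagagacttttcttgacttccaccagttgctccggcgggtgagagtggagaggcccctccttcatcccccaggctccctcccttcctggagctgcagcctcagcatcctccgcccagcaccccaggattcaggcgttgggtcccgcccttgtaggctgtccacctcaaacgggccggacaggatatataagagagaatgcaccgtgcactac
In the GRCh37 gene annotation the AHRR and SLC7A5 windows abut the 5′ end of the gene, the CYP1A1 and NQO1 windows overlap it, and the TIPARP window lies inside the gene span because an earlier start is annotated. The CYP1A1, AHRR and SLC7A5 windows each held 1 core and the TIPARP window held 2. A further AHRR window held 2 cores, and 2 further TIPARP windows and the NQO1 window held 0. Of all 35116 RefSeq windows of this length, 32.2% held the core, so its presence near a start is common. The longer form TNGCGTG, which contains the core, was in the AHRR window shown and in 4.52% of all windows. The antioxidant response element searched as TGACNNNGC was in 10.9% of all windows and in none of the 8 windows of these genes. Both strands were searched. Only the 250 bases before each start were read, so a match farther away was not looked for. A match is a description of letters, not of a bound site.

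BaP raised more genes than it lowered. On log2 CPM with limma-voom and Benjamini-Hochberg adjustment, 672 of the 14240 genes passed an adjusted p of 0.05 (4.72%), 380 higher (2.67%) with a median log2 fold change of 0.64 and 292 lower (2.05%) with a median of -0.45. A change of at least 2-fold was found for 86 of the higher and 27 of the lower genes. The values of the BaP and DMSO samples did not overlap for 3161 of the 14240 genes (22.2%). The count depended on single samples, with 358 genes called without BaP replicate 1, 353 without DMSO replicate 1 and 269 without DMSO replicate 3. It depended on the test, with 161 genes (1.13%) called by DESeq2, 98 higher (0.688%) and 63 lower (0.442%), and 735 (5.16%) by edgeR, 430 higher (3.02%) and 305 lower (2.14%). The genes that rose had a median exon GC content of 59.2% and those that fell 40.4%, against 47.5% over all genes tested, and after a loess trend of the log2 values on exon GC content and length was taken out of every sample, 194 of 13586 genes were called (1.43%), 104 higher (0.765%) and 90 lower (0.662%).

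**Figure D1:**
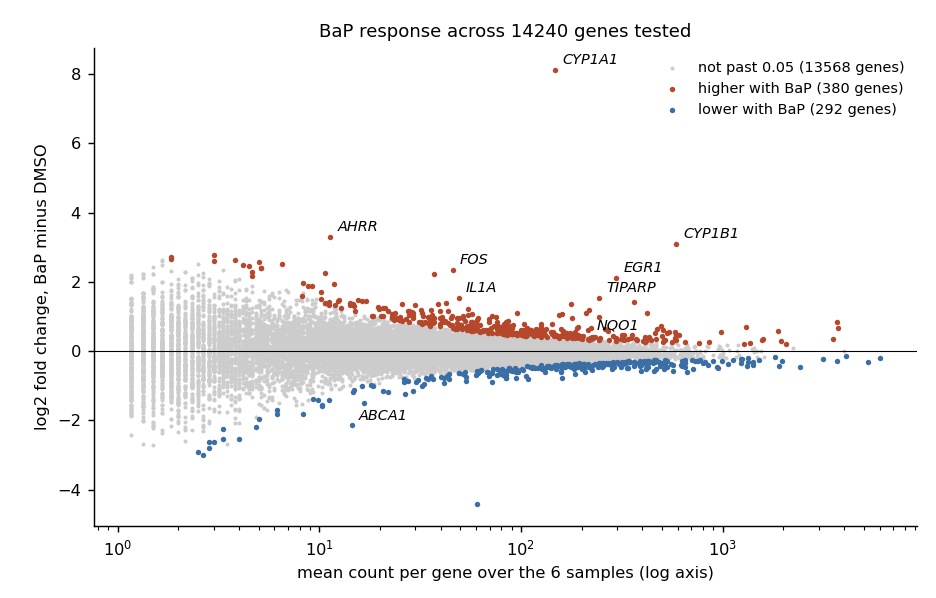
Log2 fold change of BaP over DMSO in HcRed cells (vertical axis) against the mean count over the 6 samples (horizontal axis, log scale), 1 point a gene, with the 380 higher genes in red and the 292 lower genes in blue at an adjusted p under 0.05. CYP1A1 at 8.13 lies farthest from 0, and CYP1B1 at 3.11 combines a large rise with a high count.

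The AhR target genes CYP1A1, AHRR and CYP1B1 had the 3 largest rises of all genes named by size. Of 12 listed, 11 were tested, 7 were higher and 0 lower, where 2.67% of all genes tested were higher. Their median log2 fold change was 1.20 against 0.0050 over all genes tested. CYP1A1 (GRCh37 chr15:75011883-75017877), which oxidises polycyclic hydrocarbons, had 239, 261 and 329.5 CPM in the BaP samples and 1.72, 0 and 0 CPM in the DMSO samples. Its counts were 335, 390 and 155 against 2, 0 and 0, so it was at or near 0 without BaP, and the groups did not overlap. The fitted log2 fold change was 8.13 ± 0.75 (SE), adjusted p = 9.55e-20 (n = 3 per group, as in all values that follow), and it depends on the small number added to a count near 0. Summed over the 3 samples of a group, 880 of 3361412 reads against 2 of 2900312 gave a ratio of 379.6 with a 95% exact interval of 105 to 3139.8, which covers counting error only. CYP1A2, its neighbour in the CYP1 family, had counts of 0, 2 and 0 with BaP and 0, 0 and 0 with DMSO and was not tested.

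CYP1B1 (chr2:38294116-38337044), the other CYP1 oxidase of airway epithelium, was already expressed in DMSO. It had 1015, 921 and 855 CPM in the BaP samples and 109, 103 and 113 CPM in the DMSO samples, with no overlap and a log2 fold change of 3.11 ± 0.11 (SE), adjusted p = 3.93e-78, the smallest adjusted p of all genes tested. The AhR repressor AHRR (chr5:321829-438406), which competes with AhR for ARNT, had 19.2, 15.4 and 23.4 CPM in the BaP samples and 5.15, 1.45 and 0 CPM in the DMSO samples. Its change was 3.30 ± 0.64 (SE), adjusted p = 8.25e-05, from DMSO counts of 6, 1 and 0. TIPARP (chr3:156391024-156424559), the ADP-ribosyltransferase that limits AhR signalling, had 345, 338 and 298 CPM in the BaP samples and 121, 98.4 and 117 CPM in the DMSO samples, a change of 1.55 ± 0.12 (SE), adjusted p = 2.98e-27. All 3 BaP samples of both feedback genes lay above all 3 DMSO samples.

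The aldehyde dehydrogenase ALDH3A1 (chr17:19641297-19652256) had 59.2, 49.6 and 63.8 CPM in the BaP samples and 17.2, 10.1 and 7.88 CPM in the DMSO samples and a log2 fold change of 2.22 ± 0.30 (SE), adjusted p = 8.03e-10. NQO1 (chr16:69740899-69760571), which reduces quinones and is also an NRF2 target, had 248, 311 and 302 CPM in the BaP samples and 116, 129 and 126 CPM in the DMSO samples, a change of 1.20 ± 0.12 (SE), adjusted p = 6.30e-18. SLC7A5 (chr16:87863629-87903113), the large neutral amino acid transporter, had 2176, 1976 and 2419 CPM in the BaP samples and 1456, 1558 and 1315 CPM in the DMSO samples. It rose least of the 7, by 0.57 ± 0.06 (SE), adjusted p = 1.80e-18, and by 0.22 (adjusted p = 0.00635) with the GC trend removed. The groups did not overlap for any of these genes. The 4 members that did not pass were UGT1A6 at 0.89, adjusted p = 0.291, CYP2S1 at 0.49, adjusted p = 0.695, NFE2L2 at 0.11, adjusted p = 0.648, and LRAT at -1.01, adjusted p = 0.553. UGT1A6 shares exons with other UGT1A genes and its reads are uncertain. The same 7 genes were called by edgeR, by DESeq2, with the GC trend removed and with any 1 of the 6 samples left out.

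**Figure D2:**
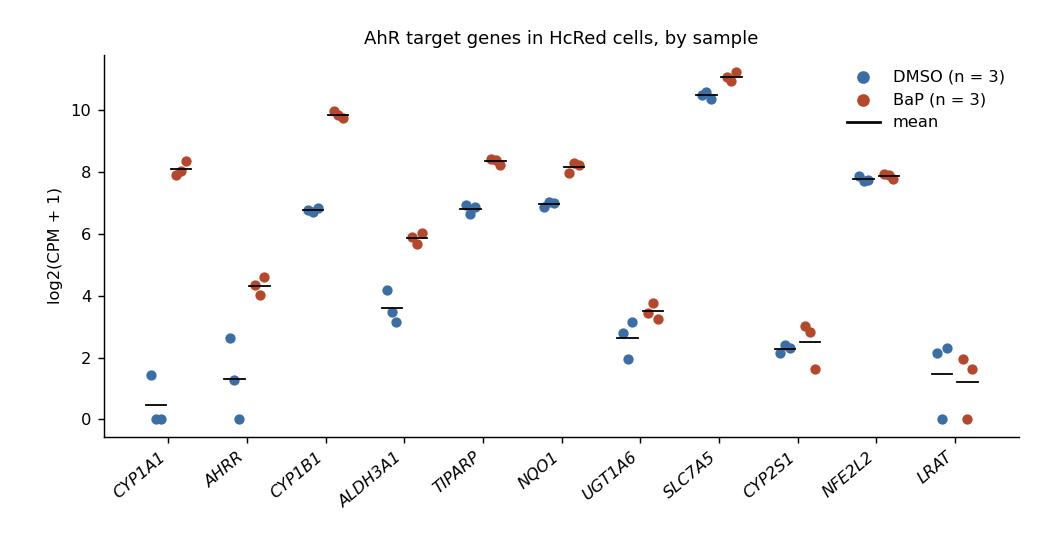
Log2 of CPM plus 1 (vertical axis) of the 11 tested AhR target genes, 1 point a sample, with DMSO in blue, BaP in red and a line at the mean of each group of 3. The BaP points lie above the DMSO points in the 7 genes that rose, from CYP1A1 (239 to 329.5 CPM against 0 to 1.72) to SLC7A5 (1976 to 2419 CPM against 1315 to 1558), while those of CYP2S1, NFE2L2 and LRAT overlap.

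The transcript of the receptor itself did not pass. Of 10 tested members of the AhR complex 0 were higher and 2 lower, with a median log2 fold change of 0.05. Over all genes tested 2.05% were lower. AHR, the receptor, had 209.6, 207 and 206 CPM in the BaP samples and 192, 169 and 231 CPM in the DMSO samples, with overlapping groups and a log2 fold change of 0.07 ± 0.11 (SE), adjusted p = 0.804. ARNT, its partner, had 70.6, 75 and 76.5 CPM in the BaP samples and 76.3, 65.1 and 82.7 CPM in the DMSO samples, a change of -0.04 ± 0.16 (SE), adjusted p = 0.925. HSP90AA1 and HSP90AB1, the cytosolic HSP90 genes that hold the receptor, were called lower at -0.24, adjusted p = 1.80e-04 and -0.22, adjusted p = 0.0161. For HSP90AA1 the change was -0.15 without BaP replicate 3, with an adjusted p of 0.0757 with the GC trend removed and 0.661 in DESeq2. HSP90AB1 was not called without DMSO replicate 1 (0.114) or DMSO replicate 3 (0.109), where the values are adjusted p, nor by edgeR (0.0647), by DESeq2 (0.131) or with the replicate number as a block (0.0502).

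Some of the enzymes that process BaP rose. Of 27 listed BaP metabolism genes 26 were tested, 7 were higher and 0 lower, with a median of 0.43. Over all genes tested 2.67% were higher. The number called higher was 5 by edgeR, 4 by DESeq2, 3 with the GC trend removed and 5 with the block. CYP1A1, CYP1B1 and NQO1 are among the 7. EPHX1, the microsomal epoxide hydrolase between the oxidase steps, had 50.6, 48.9 and 46.8 CPM in the BaP samples and 23.2, 28.9 and 29.5 CPM in the DMSO samples, a log2 fold change of 0.87 ± 0.22 (SE), adjusted p = 0.00637. Its groups did not overlap, but it was not called without DMSO replicate 1 (0.115), with the GC trend removed (0.104) or by DESeq2 (0.163). GSTP1, which joins glutathione to diol epoxides, had 445, 417 and 551 CPM in the BaP samples and 329, 392 and 307 CPM in the DMSO samples, a change of 0.42 ± 0.09 (SE), adjusted p = 4.63e-04, and 0.09 (adjusted p = 0.721) with the GC trend removed. The aldo-keto reductases AKR1C1 and AKR1C2, near-identical copies that can share reads, were called at 2.41, adjusted p = 0.0459 and 1.52, adjusted p = 0.0493 with overlapping groups. AKR1C1 was not called without BaP replicate 1 (0.232), BaP replicate 2 (0.0755), DMSO replicate 2 (0.141) or DMSO replicate 3 (0.382), and AKR1C2 not without BaP replicate 1 (0.244), BaP replicate 2 (0.124), DMSO replicate 1 (0.506), DMSO replicate 2 (0.0829) or DMSO replicate 3 (0.0574), and its change was 0.78 without DMSO replicate 1. Neither was called by edgeR (0.101 for AKR1C1 and 0.0528 for AKR1C2), DESeq2 (0.835 and 0.623), with the GC trend removed (0.0613 and 0.0574) or with the block (0.151 and 0.114). The P450 reductase POR at 0.39, adjusted p = 0.167 did not pass.

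Of 24 tested NRF2 target genes, which serve glutathione and thioredoxin metabolism, iron storage and NADPH supply, 13 were higher and 0 lower, the median was 0.58, and all 24 had a fold change above 0, against 7200 of all 14240 genes. FTL, the light chain of ferritin that stores iron, had 475, 462 and 614 CPM in the BaP samples and 198, 166 and 181 CPM in the DMSO samples, a log2 fold change of 1.43 ± 0.10 (SE), adjusted p = 1.35e-30. SQSTM1, an autophagy receptor that also binds KEAP1, had 285, 316 and 313 CPM in the BaP samples and 149, 168 and 147 CPM in the DMSO samples, a change of 0.98 ± 0.11 (SE), adjusted p = 6.24e-14. TXNRD1, thioredoxin reductase, had 569.5, 603 and 563 CPM in the BaP samples and 356, 327 and 369 CPM in the DMSO samples, a change of 0.72 ± 0.09 (SE), adjusted p = 1.47e-12. None of these overlapped between groups. The glutathione synthesis genes GCLC and GCLM, SRXN1, TXN, TKT and FTH1 were among the other genes called higher, whereas HMOX1, KEAP1 and PRDX1 did not pass. SLC7A11, the cystine transporter, was at 0.51, adjusted p = 0.00223 and was not called without DMSO replicate 2 (0.0523) or by DESeq2 (0.104). DESeq2 called 10 NRF2 targets higher, and 11 were called higher with the GC trend removed. Over all genes tested limma-voom called 2.67% higher. The rise was not particular to BaP. Against the same DMSO samples 18 of 24 NRF2 targets were higher with CSC (median 0.72) and 8 of 24 with NNK (median 0.32). NFE2L2, which encodes NRF2, had 247, 238 and 217 CPM in the BaP samples and 234, 209.8 and 214 CPM in the DMSO samples and did not pass.

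**Figure D3:**
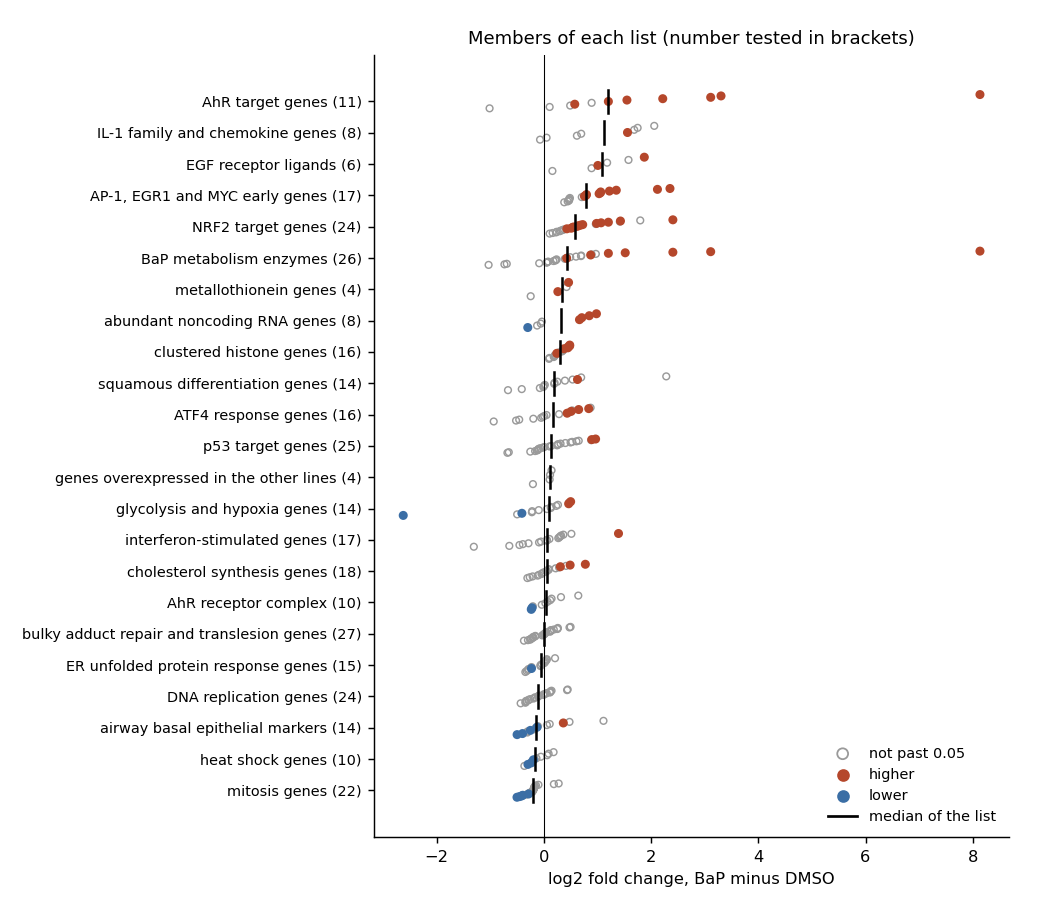
Log2 fold change of BaP over DMSO (horizontal axis) for the tested members of each gene list, 1 point a gene, filled in red (higher) or blue (lower) at an adjusted p under 0.05, with a bar at the list median and the number tested in brackets. The medians of AhR targets (1.20), early genes (0.78) and NRF2 targets (0.58) lie to the right of 0 and that of mitosis genes (-0.20) to the left, and repair (0.01) and replication genes (-0.11) hold no filled point.

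Of 25 tested p53 target genes 2 were higher and 0 lower, with a median of 0.14, where 2.67% of all genes tested were higher. CDKN1A, the p21 inhibitor of cyclin-dependent kinases, had 219, 214 and 264 CPM in the BaP samples and 118, 113 and 113 CPM in the DMSO samples, a log2 fold change of 0.96 ± 0.12 (SE), adjusted p = 3.84e-11, with no overlap. GADD45A, a stress gene of growth arrest, was at 0.89, adjusted p = 0.0103 and was not called without BaP replicate 2 (0.0569), DMSO replicate 1 (0.0533), DMSO replicate 2 (0.0565) or DMSO replicate 3 (0.0573), by DESeq2 (0.166) or with the GC trend removed (0.13). TP53I3 at 0.53, adjusted p = 0.0567 and SESN1 at -0.66, adjusted p = 0.0822 did not pass. Of 27 tested genes of bulky adduct repair and translesion synthesis 0 passed in either direction in limma-voom, edgeR or DESeq2, and their median was 0.01. Over all genes tested these tests called only 4.72%, 5.16% and 1.13%, so few calls would be found in a list of this size. A p that misses the threshold does not show that the repair genes were unaltered.

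Of 22 tested mitosis genes 5 were lower and 0 higher, with a median of -0.20 and 20 of the 22 below 0. Over all genes tested 2.05% were lower and 2.67% higher. The fall was not particular to BaP. With CSC 16 of the 22 were lower than in DMSO and 1 higher (median -0.36). With NNK 13 were lower and 0 higher (median -0.30). CENPF, a kinetochore protein, had 1103, 1164 and 893 CPM in the BaP samples and 1467, 1289 and 1560.0 CPM in the DMSO samples, a log2 fold change of -0.42 ± 0.06 (SE), adjusted p = 4.45e-08. TOP2A, the topoisomerase of mitotic chromosomes, was at -0.40, adjusted p = 1.12e-07, CENPE, a kinetochore motor, at -0.50, adjusted p = 2.23e-06 and ASPM, a spindle pole protein, at -0.46, adjusted p = 2.84e-06. With the GC trend removed these changes were -0.25, -0.22, -0.29 and -0.25, and ASPM was not called (0.0543). MKI67 was also lower. Of 24 tested DNA replication genes 0 were called, where 4.72% of all genes tested were, and their median was -0.11. With the GC trend removed 1 of them was called lower, and 0 to 2 were lower with 1 sample left out. RRM2, a ribonucleotide reductase subunit, at -0.29, adjusted p = 0.0564 and MCM6, a subunit of the replicative helicase, at -0.28, adjusted p = 0.0799 came nearest. Of 16 tested clustered histone genes 6 were higher and 0 lower, with a median of 0.31, and all 16 lay above 0. HIST1H1E, a linker histone, was at 0.48, adjusted p = 1.40e-06, and at an adjusted p of 0.138 with the GC trend removed. DESeq2 called 1 histone gene and the GC correction left 1, and with 1 sample left out 1 to 4 were called (1 without DMSO replicate 1). Histone copies are alike in sequence and can share reads.

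Early response genes, switched on within the first phase of a growth or stress signal, held 10 rises. Of 17 tested AP-1, EGR1 and MYC early genes these 10 were higher and 0 lower, with a median of 0.78 and all 17 above 0. Over all genes tested 2.67% were higher. FOS, a subunit of AP-1, had 56.3, 75 and 89.3 CPM in the BaP samples and 6.86, 18.8 and 20.7 CPM in the DMSO samples, a log2 fold change of 2.35 ± 0.28 (SE), adjusted p = 9.24e-13. EGR1, a growth factor responsive transcription factor, had 407, 458 and 466 CPM in the BaP samples and 67.8, 137 and 124 CPM in the DMSO samples, a change of 2.12 ± 0.12 (SE), adjusted p = 1.60e-42. DUSP1, a phosphatase of MAP kinases, had 247, 218 and 262 CPM in the BaP samples and 91.8, 101 and 87.7 CPM in the DMSO samples, a change of 1.35 ± 0.13 (SE), adjusted p = 7.23e-19. MYC, a transcription factor of cell growth, had 186, 205 and 196 CPM in the BaP samples and 92.6, 91.2 and 96.5 CPM in the DMSO samples, a change of 1.06 ± 0.13 (SE), adjusted p = 1.14e-11. In all of these genes the groups did not overlap. FOSL1, FOSL2, JUND, IER2, KLF4 and KLF6 were also higher, and JUN, JUNB and ATF3 did not pass. DESeq2 called 9, and 8 were called with the GC trend removed. The rise was not particular to BaP. Against the same DMSO samples 14 of 17 early genes were higher with CSC (median 1.29) and 12 of 17 with NNK (median 1.10). Those 2 comparisons were also broader over all genes tested. In limma-voom 34.7% of genes had an unadjusted p under 0.05 with CSC, 29.8% with NNK and 17.9% with BaP.

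Signals to neighbouring cells rose in a few genes. The EGF receptor ligand EREG had 94.8, 96.4 and 59.5 CPM in the BaP samples and 42, 44.9 and 45.3 CPM in the DMSO samples, a log2 fold change of 1.01 ± 0.18 (SE), adjusted p = 1.29e-05. EPGN, another ligand of that receptor, was at 1.87, adjusted p = 0.0151, and was not called without BaP replicate 1 (0.0676), DMSO replicate 1 (0.0868) or DMSO replicate 3 (0.107) or by DESeq2 (0.193). These were the 2 of 6 tested EGF receptor ligands that passed, and the median of the 6 was 1.09. Some were near the level of 3 counts in DMSO, such as AREG at 1.45 to 3.94 CPM. In GFP cells 0 of 6 tested ligands were called, with a median of 0.42. IL1A, an alarm cytokine of epithelium, had 68.4, 71 and 57.4 CPM in the BaP samples and 24.9, 20.3 and 22.7 CPM in the DMSO samples, a change of 1.54 ± 0.23 (SE), adjusted p = 3.12e-08. It was the 1 called gene of 8 tested IL-1 family and chemokine genes, whose median was 1.118, and IL1B at 1.68, adjusted p = 0.0593 did not pass. That median includes genes near the level of 3 counts, such as CCL20 at 0 to 2.89 CPM in DMSO. In GFP cells 1 of 6 tested was higher, with a median of 0.43. Over all genes tested 4.72% were called, and interferon-stimulated genes held 1 call in 17 tested with a median of 0.05. That gene, IRF7 at 1.38, adjusted p = 0.0168, was not called without BaP replicate 1 (0.0843) or DMSO replicate 3 (0.272), by DESeq2 (0.339), with the GC trend removed (0.247) or with the block (0.0665). Squamous differentiation genes held 1 of 14, again beside 4.72% of all genes, with a median of 0.19. That gene, S100A9, was at 0.61, adjusted p = 9.16e-04, and at 0.45 (adjusted p = 0.0545) with the GC trend removed.

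For the other stress lists the shares over all genes tested were 2.67% higher and 2.05% lower. Among ATF4 response genes 4 of 16 tested were higher and 0 lower, with a median of 0.16. DDIT4, an inhibitor of mTOR, was at 0.65, adjusted p = 4.82e-10 and at 0.39 with the GC trend removed, and SLC3A2, the partner of SLC7A5 in amino acid transport, at 0.43, adjusted p = 7.52e-05. CEBPB was at 0.84, adjusted p = 0.00168 but was not called without DMSO replicate 1 (0.138), with the GC trend removed (0.288) or by DESeq2 (0.133). Genes of the ER unfolded protein response had 1 of 15 tested lower, HSP90B1, and a median of -0.06, and that gene was not called without BaP replicate 3 (0.0584), DMSO replicate 1 (0.126) or DMSO replicate 3 (0.0516), with the GC trend removed (0.692) or by DESeq2 (0.196). Heat shock genes had 3 of 10 lower, HSPD1, HSPA8 and HSP90AA1, with a median of -0.17. DESeq2 called 0 of these 3, HSPD1 was not called without BaP replicate 1 (0.221) or DMSO replicate 1 (0.193), and HSPA8 was not called without BaP replicate 1 (0.0905), DMSO replicate 1 (0.164), DMSO replicate 2 (0.0708) or DMSO replicate 3 (0.129). HSPD1 was also not called with the GC trend removed (0.356), and HSPA8 not by edgeR (0.125) or with the block (0.0938). Of 14 tested genes of glycolysis and hypoxia 2 were higher and 2 lower, with a median of 0.09. LDHA, lactate dehydrogenase, was at -0.41, adjusted p = 4.93e-05, while NDRG1, a hypoxia-responsive gene, was at 0.50, adjusted p = 0.00206 and SLC2A1, a glucose transporter, at 0.46, adjusted p = 0.00926. With the GC trend removed neither was called higher, at 0.37 (adjusted p = 0.0637) for NDRG1 and 0.29 (0.234) for SLC2A1, and SLC2A1 was not called without BaP replicate 1 (0.0571) or DMSO replicate 1 (0.0900) or by DESeq2 (0.117). EGLN3, an oxygen-sensing hydroxylase, had counts of 1, 0 and 1 against 7, 6 and 3, at -2.63, adjusted p = 0.0236, and was not called without BaP replicate 1 (0.0907), BaP replicate 2 (0.183), DMSO replicate 1 (0.0761) or DMSO replicate 2 (0.0777), by DESeq2 (0.294) or with the block (0.0549).

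Cholesterol synthesis held 3 of 18 higher with a median of 0.05, where 2.67% of all genes tested were higher. The 3 included MVD, a decarboxylase of the pathway, at 0.77, adjusted p = 4.65e-04 and DHCR7, its last reductase, at 0.49, adjusted p = 0.00338. None of the 3 was called with the GC trend removed, with an adjusted p of 0.296 for MVD and 0.36 for DHCR7. MVD was not called without DMSO replicate 1 (0.0631), nor DHCR7 without BaP replicate 1 (0.0543) or DMSO replicate 3 (0.141) or by DESeq2 (0.102). Metallothioneins held 2 of 4 higher, MT1E and MT2A, with a median of 0.34, and neither was called with the GC trend removed or by DESeq2. MT1E, at 0.46, adjusted p = 0.00566, was not called without BaP replicate 2 (0.0967), DMSO replicate 1 (0.0814) or DMSO replicate 3 (0.0669), and MT2A, at 0.26, adjusted p = 0.0124, without BaP replicate 2 (0.216), DMSO replicate 1 (0.0588) or DMSO replicate 3 (0.151) or with the block (0.0632), and its change was 0.17 without BaP replicate 2. The mitochondrial ribosomal RNA genes RNR1 and RNR2, the tested members of the mitochondrial list, held 1 lower, with 0 called by edgeR or DESeq2.

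The keratins of basal cells moved in both directions. KRT14, a keratin of basal cells, had 386, 374 and 361 CPM in the BaP samples and 541, 612 and 469 CPM in the DMSO samples, a log2 fold change of -0.50 ± 0.09 (SE), adjusted p = 3.60e-06 that was -0.77 with the GC trend removed, while KRT17, a keratin of stressed epithelium, had 1818, 1598 and 1675 CPM in the BaP samples and 1295, 1443 and 1262 CPM in the DMSO samples, a change of 0.36 ± 0.06 (SE), adjusted p = 4.29e-07 that was 0.08 (adjusted p = 0.595) with the GC trend removed. ITGA6, the integrin of hemidesmosomes, was at -0.40, adjusted p = 8.35e-06. Of the 14 basal markers 1 was higher and 4 lower, with a median of -0.14, where 2.67% of all genes tested were higher and 2.05% lower. LAMA3, a chain of laminin, was one of the 4 at -0.25, adjusted p = 0.0254, and was not called without BaP replicate 1 (0.0636), BaP replicate 3 (0.0729), DMSO replicate 1 (0.0692), DMSO replicate 2 (0.0752) or DMSO replicate 3 (0.126), by DESeq2 (0.153) or with the GC trend removed (0.175). DESeq2 called 2 basal markers lower. Among 8 tested noncoding RNA genes 4 were higher and 1 lower, with a median of 0.31. NEAT1, the scaffold of paraspeckles, had 4594, 4207 and 4611 CPM in the BaP samples and 2572, 2209 and 2568 CPM in the DMSO samples, a change of 0.85 ± 0.04 (SE), adjusted p = 4.85e-47. RMRP, RNA of the RNase MRP enzyme, was at 0.71, adjusted p = 8.09e-19 and at 0.37 with the GC trend removed, and RPPH1, RNA of RNase P, at 0.66, adjusted p = 2.99e-27, though RPPH1 was not called by DESeq2. MALAT1 was called lower at -0.30 (adjusted p = 0.0358), and with an adjusted p of 0.249 in DESeq2 and 0.461 with the GC trend removed. Of these genes 2 were called higher and 0 lower by DESeq2, 0 were lower with the block, and 0 to 1 were lower with 1 sample left out. With the GC trend removed 2 of the 7 genes with a GC content were higher and 0 lower. RPPH1 had no GC content and was not in that fit. The genes overexpressed in the other lines, NFE2L2, FGFR1, NRG1 and PIK3CA, had 0 of 4 called, with changes from -0.21 to 0.14.

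Outside the lists, the rule for the largest changes added other genes. VSTM2L, a secreted protein, had 15.7, 16.1 and 19.1 CPM in the BaP samples and 4.29, 2.89 and 1.97 CPM in the DMSO samples, a log2 fold change of 2.26 ± 0.51 (SE), adjusted p = 0.00143, and ELF3, an epithelial ETS factor, had 18.5, 17.4 and 14.9 CPM in the BaP samples and 4.29, 4.34 and 3.94 CPM in the DMSO samples, a change of 1.93 ± 0.46 (SE), adjusted p = 0.0026. ELF3 was at an adjusted p of 0.0646 in DESeq2. ABCA1 (chr9:107543287-107690436), which exports cholesterol, had 8.55, 2.68 and 6.38 CPM in the BaP samples and 27.4, 23.2 and 19.7 CPM in the DMSO samples. Its change was -2.15 ± 0.40 (SE), adjusted p = 3.65e-05. The rule admits only genes whose groups did not overlap. ULK4, a kinase-like protein, fell by 1.23 on the log2 scale (adjusted p = 4.52e-04) and LINC01468, a noncoding RNA, by 1.14 (adjusted p = 0.00223). Both kept their call with any 1 sample left out, but their DESeq2 adjusted p was 0.0615 and 0.0761.

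Further large changes lost their call when some single samples were left out. SNORA26 at 1.71, adjusted p = 0.0382 was not called without BaP replicate 1 (0.107), BaP replicate 3 (0.102), DMSO replicate 2 (0.333) or DMSO replicate 3 (0.131), and its change was 0.84 without DMSO replicate 2. LARGE2 at 1.47, adjusted p = 0.0261 was not called without BaP replicate 2 (0.0839), BaP replicate 3 (0.101) or DMSO replicate 3 (0.429), and its change was 0.81 without DMSO replicate 3. CPA4, a carboxypeptidase, at -1.16, adjusted p = 0.00738 was not called without BaP replicate 1 (0.169), and LINC01355 at -1.49, adjusted p = 0.00309 without DMSO replicate 3 (0.0593). RBMS3 at -1.56, adjusted p = 0.0131 was lost without BaP replicate 1 (0.067), BaP replicate 2 (0.0769) or DMSO replicate 3 (0.0752), S1PR5 at -1.40, adjusted p = 0.0186 without BaP replicate 1 (0.0808), BaP replicate 2 (0.0961), DMSO replicate 1 (0.0621) or DMSO replicate 3 (0.0922), and MMD at -1.19, adjusted p = 0.0372 without BaP replicate 1 (0.246), BaP replicate 3 (0.0758) or DMSO replicate 3 (0.263). MYLIP and WDR92, also among the 12 largest falls, were each called in 1 of the 6 fits with a sample left out, that without DMSO replicate 2. None of these 9 genes was called by DESeq2, with an adjusted p of 0.407 for SNORA26, 0.207 for LARGE2, 0.161 for CPA4, 0.0641 for LINC01355, 0.176 for RBMS3, 0.25 for S1PR5, 0.335 for MMD, 0.367 for MYLIP and 0.371 for WDR92. With the GC trend removed LARGE2 (0.231), RBMS3 (0.0572), MMD (0.119), MYLIP (0.0836) and WDR92 (0.125) were not called. SNORA26 had no GC content and was not in that fit. With the block SNORA26 (0.0598), MMD (0.073), MYLIP (0.0588) and WDR92 (0.0783) were not called. SNORA26 was not called by edgeR either (0.0624). The values in parentheses are adjusted p.

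The direction of change followed the base composition of the gene. With 13586 genes divided into 5 equal groups (quintiles) by exon GC content, the median log2 fold change was -0.17, -0.12, -0.02, 0.16 and 0.33 from the lowest to the highest. The lowest quintile held 6 higher and 149 lower genes and the highest 228 higher and 6 lower. The difference between the highest and lowest quintile was 0.50, and in single samples, against the mean of the DMSO samples, it was 0.47, 0.32 and 0.75 with BaP and 0.02, 0.13 and -0.14 with DMSO. All 3 BaP samples lay above all 3 DMSO samples, and BaP replicate 3, the shallowest, was highest. Genomic span went the other way, from 0.15 in the shortest quintile to -0.10 in the longest, a difference of -0.25, with -0.21, -0.19 and -0.35 in the BaP and -0.01, -0.05 and 0.05 in the DMSO samples. With the GC and exon length trend removed the span difference was -0.02. Within quintiles of GC content it lay between -0.095 and -0.015, and within quintiles of span the GC difference lay between 0.31 and 0.57. Spearman's rho across genes, which are not independent replicates, was 0.46 for GC content and -0.22 for span.

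**Figure D4:**
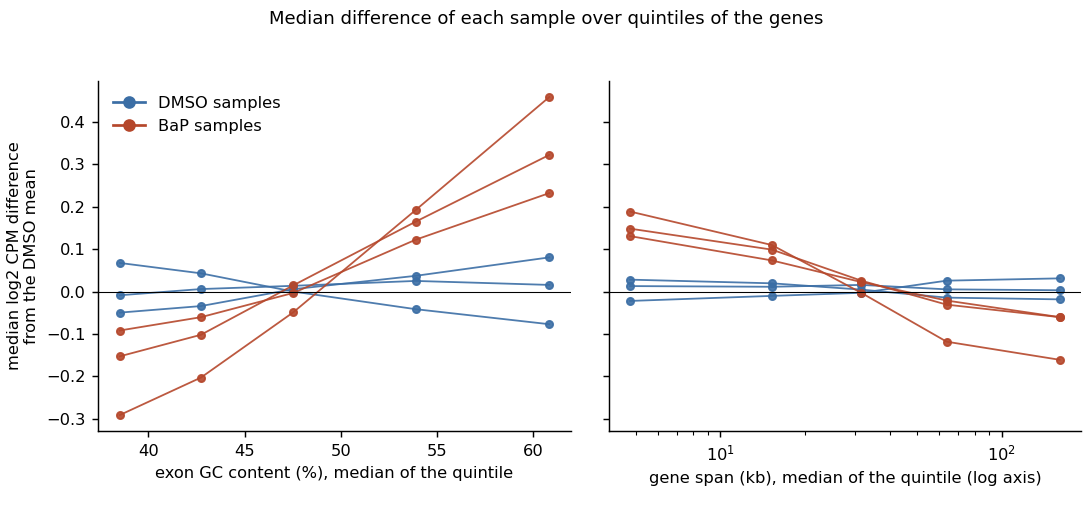
Median log2 CPM difference from the mean of the DMSO samples (vertical axis) in quintiles of genes by exon GC content (left) and by genomic span (right, log scale), 1 line a sample, BaP in red and DMSO in blue. The BaP lines rise with GC content by 0.32 to 0.75 from the lowest to the highest quintile and fall with span, and the DMSO lines change by -0.14 to 0.13 over the GC quintiles.

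GFP cells, measured in their own BaP and DMSO samples, were used to ask whether the response recurred in the other control line. In them 763 genes were higher (5.51%) and 764 lower (5.52%) of 13838 tested, 11% in all. Of the 667 genes called in HcRed cells and tested in both lines, 642 (96.3%) had a fold change of the same sign in GFP cells, against 70.1% of all 13440 genes tested in both. Of those, 391 were called in both in the same direction, which is 58.6% of the HcRed calls and 25.6% of the 1525 GFP calls. With the GC trend removed, 181 of 191 HcRed calls (94.8%) had the same sign in GFP cells, against 61.6% of 12920 genes. The BaP response of GFP cells included 7 of 11 AhR targets higher, 17 of 23 NRF2 targets higher and 16 of 22 mitosis genes lower. CYP1B1 was at 3.63 ± 0.13 (SE), adjusted p = 5.17e-29 in GFP cells, AHRR at 3.68 ± 0.70 (SE), adjusted p = 2.08e-04, and KRT14 at -1.13 ± 0.10 (SE), adjusted p = 3.40e-12. CYP1A1 was at 5.62 ± 0.30 (SE), adjusted p = 3.01e-21, from counts of 407, 202 and 185 with BaP and 11, 5 and 10 with DMSO.

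The difference between the lines was tested in 1 fit with an interaction term. Of 14196 genes 0 passed (0% in either direction) in limma-voom, with a smallest adjusted p of 0.0948, 754 genes (5.31%) at an unadjusted p under 0.05, 3 calls by edgeR and 0 by DESeq2. Without HcRed BaP replicate 3 limma-voom called 6 genes. The interaction was 2.51 ± 0.78 (SE), adjusted p = 0.783 for CYP1A1, with DMSO counts of 2, 0 and 0 in HcRed and 11, 5 and 10 in GFP cells, and 0.62 ± 0.14 (SE), adjusted p = 0.132 for KRT14. For SLC7A11 it was 0.65 ± 0.16 (SE), adjusted p = 0.345, from 0.51 in HcRed and -0.15 in GFP cells. These values did not pass, which does not show that the lines respond alike.

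**Figure D5:**
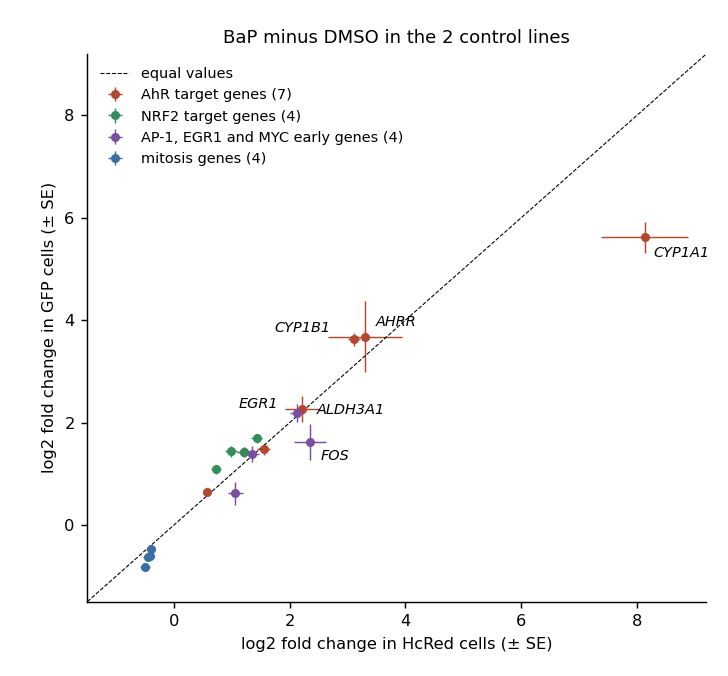
Log2 fold change of BaP over DMSO in HcRed cells (horizontal axis) and in GFP cells (vertical axis) for the 7 AhR targets that rose and 4 genes each of 3 other lists, with bars for the SE and a dashed line of equal values. CYP1A1 lies below the line at 8.13 and 5.62, CYP1B1 lies at 3.11 and 3.63, and all 4 mitosis genes are below 0 in both lines.

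CSC, a mixture of smoke constituents that includes polycyclic hydrocarbons, was compared with BaP directly, without the shared DMSO samples. Doses differed in unit and the comparison holds for these exposures only. BaP was higher than CSC in 180 genes (1.24%) and lower in 216 (1.49%) of 14505, 2.73% in all. The number called was 90 in DESeq2 and 144 with the GC trend removed, and with 1 sample left out it was 150, 98 and 648 without BaP replicates 1, 2 and 3, and 181, 262 and 301 without CSC replicates 1, 2 and 3. CYP1A1 was not called different, at -0.34 ± 0.13 (SE), adjusted p = 0.158, with counts of 335, 390 and 155 under BaP and 540, 518 and 222 under CSC, nor was CYP1B1, at 0.01 ± 0.07 (SE), adjusted p = 0.972. SLC7A5 was the 1 of 11 AhR targets that differed, at -0.58 ± 0.05 (SE), adjusted p = 9.34e-11. Against DMSO, and so with the same controls, CYP1A1 rose by 8.48 and CYP1B1 by 3.11 with CSC.

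The largest differences from CSC included the cholesterol exporters. ABCA1 was lower with BaP, at -4.28 ± 0.37 (SE), adjusted p = 6.50e-12, with counts of 12, 4 and 3 against 124, 139 and 121 and no overlap, and against DMSO it was -2.15 with BaP and 2.14 with CSC. ABCG1, its partner in export to lipoproteins, was at -2.19 ± 0.27 (SE), adjusted p = 2.88e-07. Also among the 5 lowest named differences, ANGPTL4 at -2.42 and VTRNA1-1 at -1.65 passed. On the other side were NMRK1 at 1.16 and the interferon-induced IFIT2 and IFIT3 at 1.11 each. IFIT2 had 24.9, 24.8 and 19.1 CPM with BaP and 22.3, 15.9 and 30.5 CPM with DMSO. IFIT3 had 22.8, 20.1 and 31.9 CPM with BaP and 17.2, 23.2 and 17.7 CPM with DMSO, so both overlapped. With CSC 3 of 17 interferon-stimulated genes were lower than in DMSO and 1 higher (median -0.53). Of 24 NRF2 targets 3 were lower with BaP than with CSC, FTL, FTH1 and TKT, and 5 of 17 early genes were lower, among them FOSL1 and DUSP6. Mitosis genes were higher with BaP than with CSC for 6 of 22, where 1.24% of all genes tested were. Against DMSO their median was below 0 with both, at -0.20 with BaP and -0.36 with CSC. Of 25 p53 targets 0 were called.

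NNK, a tobacco nitrosamine and no polycyclic hydrocarbon, was compared in the same way. BaP was higher than NNK in 77 genes (0.555%) and lower in 165 (1.19%) of 13880, 1.74% in all, with 61 called by DESeq2, and 74 with the GC trend removed. With 1 sample left out 189, 96 and 369 were called without BaP replicates 1, 2 and 3, and 114, 147 and 156 without NNK replicates 1, 2 and 3. CYP1A1 was higher with BaP by 2.76 ± 0.20 (SE), adjusted p = 5.78e-24, with NNK counts of 27, 24 and 20, and CYP1B1 by 1.67 ± 0.09 (SE), adjusted p = 4.13e-35. AHRR was at 2.04 ± 0.54 (SE), adjusted p = 0.0235. With the shared DMSO controls CYP1A1 was at 5.38 and CYP1B1 at 1.44 with NNK, so both genes were above DMSO with NNK as well. Of 11 AhR targets 5 were higher and 1 lower with BaP than with NNK, and of 24 NRF2 targets 9 were higher and 0 lower, including NQO1, TXNRD1 and FTL. Cholesterol synthesis genes went the other way, 10 of 18 lower with BaP than with NNK and 0 higher, with a median of -0.43. Against DMSO 14 of the 18 were higher and 0 lower with NNK (median 0.44). With BaP 3 were higher and 0 lower against DMSO (median 0.05). MVD was at -1.14 ± 0.13 (SE), adjusted p = 2.32e-11, and the fatty acid synthase FASN at -1.06 ± 0.06 (SE), adjusted p = 3.84e-35. Basal markers were lower with BaP for 7 of 14, KRT14 among them. Early genes were lower with BaP for 4 of 17 and higher for 0, with EGR1 at -0.47 ± 0.08 (SE), adjusted p = 3.70e-05. The difference between the highest and the lowest GC quintile against DMSO was 0.50 with BaP, 0.91 with CSC and 0.89 with NNK in the HcRed cells and 0.72 with BaP in the GFP cells.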

How the data were processed

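Libraries were sparse full length libraries of AALE cells, pooled from barcoded samples and sequenced as single reads of 75 bp. The raw counts per RefSeq gene symbol used here are as the authors deposited them, 1 table per sample. The submitters' processing notes name cutadapt 1.12, FastQC 0.11.5, STAR 2.5.2b, featureCounts of Subread and build hg19. The strand setting of the counting is not given in the sources used here, so reads of overlapping or antisense genes and of near-identical copies are uncertain.

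Samples were grouped by their labels. Genes with a mean count above 1 over the samples of a comparison were tested with limma 3.58.1 (voom, TMM factors from edgeR 4.0.16, R 4.3.3, two-sided), each comparison fitted alone and adjusted by Benjamini-Hochberg over all genes tested, threshold 0.05. Fold changes are on the voom log2 CPM scale, which adds 0.5 to each count. The 28 gene lists, the members and the comparisons were chosen with earlier results of these data known. Named genes were the members of the AhR and BaP metabolism lists, the 12 largest rises and 12 largest falls past the threshold with groups that did not overlap and a mean count of 10 or more, up to 4 members of smallest p of every other list, the 5 highest and 5 lowest of the direct contrasts, and the overexpressed genes. Further genes are named only as called or not called, and some genes are not reported here.

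The alternatives tried were the edgeR quasi-likelihood fit, DESeq2 1.42.0 (Benjamini-Hochberg over all genes tested, without independent filtering or Cook's cutoff), DESeq2 size factors, other filters on low counts, the replicate number as a block, each sample left out in turn, and removal from each sample of a loess trend (span 0.3) with exon GC content and exon length. GC content, length and coordinates came from a GRCh37 annotation, which matched 24727 symbols (88.4%) and 13586 (95.4%) of the genes tested. Intervals cover counting error only.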

Additional observations from a re-analysis of the deposited data

How the results depend on the processing

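The alternatives were followed gene by gene for 84 genes, a part of those the rule names, and other list members, not counted here, also changed sign in some settings. Of the values computed for the 84, 1095 kept direction and call, 213 lost the call, 13 gained it and 5 changed sign. With 1 sample left out LRAT ranged from -1.68 to 0.29 (without BaP replicate 2), AHR from -0.019 (without DMSO replicate 2) to 0.18, and ARNT from -0.12 to 0.026 (without DMSO replicate 3), and ARNT was 0.021 with the GC and exon length trend removed and 0.049 with that correction and the replicate block. None of these genes was called. Of BaP against DMSO (672 genes), 161 were called by DESeq2, 194 with the GC trend removed (656 without the correction over the genes with a GC content, with 156 called both ways in the same direction), 197 with the GC trend removed and the replicate block, 546 with the replicate block alone, and 269 to 715 with 1 sample left out. The interaction with GFP cells (0) had 3 calls by edgeR, 3 with the replicate block, 1 with the GC trend removed, 5 with both, and 0 to 6 with 1 sample left out. Against CSC (396) the values were 90, 144, 111 for the block with the GC trend removed, 440 with the replicate block and 98 to 648, and against NNK (242) they were 61, 74, 109, 347 and 96 to 369, in the order DESeq2, GC trend, both, block and 1 sample left out. The difference in median fold change between the longest and shortest genes was -0.25, -0.25 with the replicate block and -0.021 with the GC trend removed, which removes a property that moves with span. The block for the gene properties and the uncorrected fit of genes with a GC content were added after seeing the data. Same-numbered BaP and DMSO samples had correlations of their deviations between -0.07 and 0.06, against -0.04 to 0.10 for other pairs. So few pairs cannot show whether same-numbered samples shared a culture or a batch. The labels give only a number, so the block is not read as a paired analysis. At these depths 3 counts equal 2.01 to 6.51 CPM, which limits calls for genes of low level. The cause of the differences between settings was not tested.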
